A study of Homo sapiens with 6 samples.

Results

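The ephrins and Eph receptors examined here were 10 genes, the receptors EPHA1, EPHA2, EPHA4, EPHB2, EPHB3 and EPHB4 and the ligands EFNA1, EFNA5, EFNB1 and EFNB2. They were taken by symbol from a count table of 25349 genes, and all 10 were among the 14661 genes that had enough reads to be tested. The libraries were made from SCC-9, a widely used human cell line that was established from a squamous carcinoma of the tongue. All cells were grown with 10% serum and 400 ng/mL hydrocortisone, were transfected with siRNA at 10 nM on day 0 and day 2, and gave RNA on day 4. In 3 libraries (siE7) the siRNA was against exon 7 of MKI67, the gene of the proliferation marker Ki67, and in 3 libraries (siNC) it was nonspecific. The methods list 3 siRNAs against exon 7 without naming the one used for these libraries, and nothing states that the replicates came from separate cultures, so the p-values measure the spread between these libraries, which may be technical. The data come from 1 cell line.

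Eph receptors form a large family of receptor tyrosine kinases, and their ligands, the ephrins, are themselves tied to the cell surface. Ephrins of class A are held by a lipid anchor and mostly bind EphA receptors, and ephrins of class B cross the membrane and mostly bind EphB receptors and EphA4. Contact between neighbouring cells sends a forward signal through the receptor and a reverse signal through the ephrin, and in stratified epithelia these signals take part in cell sorting, adhesion and migration.

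The libraries held between 25608192 and 29550264 counts on genes. The targeted gene, MKI67, stood at 1072.3, 1028.6 and 1077.2 CPM (counts relative to a fixed library size, scaled by the TMM factors of edgeR) with siNC and at 111.8, 124.5 and 107.8 CPM with siE7, a log2 fold change of -3.21 (SE 0.114, adjusted p = 6.71e-08). This and all further adjusted p-values are from the quasi-likelihood test of edgeR, adjusted over all genes by Benjamini-Hochberg. Counted by gene, reads from transcripts with and without exon 7 cannot be told apart. All 8 markers of squamous epithelium exceeded 1 CPM in every library. Their sum lay between 23251.7 and 24767.3 CPM with siNC and between 21320.6 and 27809.0 CPM with siE7, but single markers moved. KRT5 (log2 fold change -0.60), SFN (-0.61), TP63 (-0.34) and CDH1 (-1.03) were called lower and KRT17 (0.70) was called higher. KRT14, the marker with the most counts, had a log2 fold change of 0.31 that was not called (adjusted p = 0.0828). The 5 fibroblast markers summed to 16.5 to 19.6 and 18.0 to 24.1 CPM, mostly COL1A1, and the 5 endothelial markers to 0.527 to 0.606 and 0.217 to 0.337 CPM. Of the fibroblast markers, COL1A1 and COL1A2 were not called. DCN, too low to be tested, had 0, 1 and 2 counts with siNC and 8, 11 and 19 with siE7. The leukocyte markers PTPRC, CD3E and LYZ had no count. One library stood apart. On the second principal component, which held 17.8% of the variance, siE7 replicate 1 lay at -46.38 and the other siE7 libraries at 20.6 and 21, so values without it are given beside the results that it moved most.

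The region just before the start of each gene shows the sequence context from which these transcripts are made. The following runs are the 250 bases upstream of the RefSeq start of the 5 members whose level differed between the groups, on GRCh38.p14, 5′ to 3′ on the strand of the gene. They are EPHB2 (chr1:22710588-22710837, plus strand), EFNB1 (chrX:68828771-68829020, plus strand), EPHA2 (chr1:16156070-16156319, minus strand), EFNB2 (chr13:106535663-106535912, minus strand) and EFNA1 (chr1:155127626-155127875, plus strand). Capitals mark matches, on either strand, to the GC box motif GGGCGG, to the TEAD motif GGAATG, or to the motif with the letters CCAAT.
EPHB2: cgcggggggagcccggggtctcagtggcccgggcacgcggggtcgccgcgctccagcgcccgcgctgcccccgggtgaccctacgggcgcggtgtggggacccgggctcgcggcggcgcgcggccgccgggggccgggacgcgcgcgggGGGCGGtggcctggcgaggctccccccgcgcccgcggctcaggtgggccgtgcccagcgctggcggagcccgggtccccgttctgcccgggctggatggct
EFNB1: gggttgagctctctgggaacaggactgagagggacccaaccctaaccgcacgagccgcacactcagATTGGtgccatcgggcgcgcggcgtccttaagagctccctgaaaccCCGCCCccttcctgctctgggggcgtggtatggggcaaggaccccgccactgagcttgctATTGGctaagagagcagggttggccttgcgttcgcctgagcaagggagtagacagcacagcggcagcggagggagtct
EPHA2: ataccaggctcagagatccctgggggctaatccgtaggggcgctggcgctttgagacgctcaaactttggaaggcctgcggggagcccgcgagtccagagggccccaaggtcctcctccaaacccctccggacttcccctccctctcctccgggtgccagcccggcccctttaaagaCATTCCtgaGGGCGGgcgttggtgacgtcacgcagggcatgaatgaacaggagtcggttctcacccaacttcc
EFNB2: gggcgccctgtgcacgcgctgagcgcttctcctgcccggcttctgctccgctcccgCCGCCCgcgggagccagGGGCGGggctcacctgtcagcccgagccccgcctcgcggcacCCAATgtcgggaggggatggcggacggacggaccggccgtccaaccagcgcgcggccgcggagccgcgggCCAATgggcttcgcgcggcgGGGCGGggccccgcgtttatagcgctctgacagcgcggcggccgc
EFNA1: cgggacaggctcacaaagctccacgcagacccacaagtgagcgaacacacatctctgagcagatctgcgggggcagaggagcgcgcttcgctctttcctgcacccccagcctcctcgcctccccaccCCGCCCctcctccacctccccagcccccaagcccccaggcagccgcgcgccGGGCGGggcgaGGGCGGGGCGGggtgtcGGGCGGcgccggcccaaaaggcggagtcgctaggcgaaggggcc
GC boxes were found in each of the 5 promoters, 5 in EFNA1, 3 in EFNB2 and 1 each in EPHB2, EFNB1 and EPHA2. Members that were not called held them too, with 5 in EPHA1, 4 in EPHB4, 3 in EPHB3 and 3 in EFNA5. EPHA4 held 5 at 1 start and 1 at its second start. Of all 34943 RefSeq promoters of this length, 42.5% held a GC box. EFNB1 and EFNB2 each held 2 CCAAT boxes, a motif present in 32.0% of all promoters. Among the members not called, EPHA1 held 2 and EPHA4, EPHB3 and EPHB4 held 1 each. The TEAD motif of EPHA2 was the only one among the members, against 11.9% of all promoters. No member held an AP-1 motif (TGANTCA, in 6.59% of all promoters) or an E-box (CACGTG, in 6.32%) in this window. These are matches of letters and were not tested as binding sites. Over the 12 RefSeq starts of the 10 members the GC content ranged from 43.2% at a second start of EPHA4 to 84.8% at EPHB2, and the median of all promoters was 58.0%.

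With siE7, 4 of the 10 members were lower, namely EPHB2, EFNB1, EPHA2 and EFNB2, and EFNA1 was higher. The other 5 did not pass an adjusted p of 0.05. Of all genes tested, 16.0% were lower and 18.0% higher by this test. A differentially expressed gene (DEG) also had a log2 fold change above 1 or below -1. EPHB2 and EFNB1 were DEGs on the lower side, as were 4.84% of all genes. On the higher side, where 7.38% of all genes were DEGs, edgeR called 0 members, as did DESeq2 and limma-voom, and 0 members passed the fold limit at an unadjusted p under 0.05. Every siE7 library lay below every siNC library for 5 members (22.7% of all genes) and above for 3 (24.9%). The median log2 fold change was -0.28 over the members and 0.077 over all genes tested. Scaled by library totals alone, the members had a median of -0.116 and all genes one of 0.245, and the calls over all genes were 4030 higher and 1632 lower, where TMM scaling gave 2639 and 2351. In RNA from whole cultures, fewer cells with a transcript and less of it per cell cannot be told apart.

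Among the receptors, EPHB2 changed most. EphB2 (ENSG00000133216.17, chromosome 1 from 22710839 to 22921500, plus strand; all gene positions are on GRCh38 from GENCODE) binds B-class ephrins and is known for positioning cells in the intestinal epithelium. Its level was 135.2, 133.8 and 142.0 CPM with siNC and 51.2, 41.0 and 44.1 CPM with siE7. The siNC libraries lay close together, and even the highest siE7 library was far below them. The log2 fold change was -1.59 (SE 0.120, 95% interval -1.85 to -1.33, adjusted p = 6.05e-06), a level 3.01-fold lower with siE7. It was called in all 17 settings, with values from -1.75 to -1.43.

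EPHA2 (ENSG00000142627.13, chromosome 1 from 16124337 to 16156069, minus strand) encodes the main EphA receptor of many epithelial cells, whose ligand EphrinA1 lowers its abundance on the cell surface. It stood at 111.9, 97.0 and 123.1 CPM with siNC and at 72.5, 51.0 and 45.9 CPM with siE7. The groups did not overlap, and siE7 replicate 1 was the siE7 library nearest to siNC. With siE7 it was lower by a log2 fold change of -0.97 (SE 0.169, 95% interval -1.34 to -0.60, adjusted p = 0.0013), and without siE7 replicate 1 it was -1.25. EPHA2 missed the fold limit of a DEG narrowly, was a DEG with DESeq2 (-1.02), with RLE scaling (-1.01) and without siNC replicate 2 (-1.06) or siE7 replicate 1, and was called lower in all 17 settings.

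EPHB4 (ENSG00000196411.10, chromosome 7 from 100802565 to 100827523, minus strand), a receptor of EphrinB2 known from the border between arteries and veins, was the receptor with the highest level. It stood at 214.2, 225.0 and 224.3 CPM with siNC and at 223.7, 171.0 and 168.8 CPM with siE7. Here siE7 replicate 1 lay among the siNC libraries and the other siE7 libraries lay below them. Its log2 fold change of -0.24 was not called (95% interval -0.52 to 0.04, adjusted p = 0.176). Without siE7 replicate 1 it was -0.44 with an adjusted p of 1.08e-08 by the same edgeR test, so the call depends on this library. After removal of the trend with gene GC content, EPHB4 was also called lower (-0.21, adjusted p = 0.0134). The first exon region of EPHB4 shares 69 exon bases with SLC12A9 on the opposite strand, and SLC12A9 had a log2 fold change of -0.19 (adjusted p = 0.349).

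EPHA1 (ENSG00000146904.9, chromosome 7 from 143390289 to 143408856, minus strand), an EphA receptor of epithelia, stood at 21.8, 20.0 and 23.9 CPM with siNC and at 18.9, 16.6 and 17.1 CPM with siE7. The groups did not overlap, though their nearest libraries were close. A log2 fold change of -0.33 resulted (95% interval -0.63 to -0.02, adjusted p = 0.0912), which was not called. Without siE7 replicate 1 the value was -0.44 with an adjusted p of 0.000279, and with the GC trend removed it was -0.28 with an adjusted p of 0.0384. EPHA1 shares 82 exon bases with ZYX on the opposite strand, whose log2 fold change was -0.30 (adjusted p = 0.144), and its antisense gene EPHA1-AS1, with no shared exon base and 132 counts in all, had one of -1.24 (adjusted p = 0.03). Use of the strand in counting is not given in the sources used here, so reads of opposite genes cannot be told apart where they overlap.

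The remaining receptors were low. EPHB3 (ENSG00000182580.3, chromosome 3 from 184561785 to 184582408, plus strand), a B-class receptor, stood at 4.98, 3.20 and 4.32 CPM with siNC and at 6.24, 5.43 and 5.63 CPM with siE7. EPHA4 (ENSG00000116106.12, chromosome 2 from 221418027 to 221574202, minus strand), which binds ephrins of both classes, had 22, 9 and 16 counts with siNC and 46, 27 and 32 counts with siE7. For both genes every siE7 library lay above every siNC library. The log2 fold changes were 0.47 for EPHB3 (95% interval 0.01 to 0.92, adjusted p = 0.104) and 0.94 for EPHA4 (95% interval 0.06 to 1.83, adjusted p = 0.0922), and neither was called. EPHB3 was called higher with scaling by library totals (adjusted p = 0.0377) and with the GC trend removed (adjusted p = 0.0362). Its log2 fold change was 0.30 without siNC replicate 2 and 0.35 without siE7 replicate 1, and that of EPHA4 was 0.65 without siE7 replicate 1. The interval of EPHA4, whose counts were the fewest, is the widest among the members.

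Of the ligands, EFNB1 changed most. EphrinB1 (ENSG00000090776.6, chromosome X from 68829021 to 68842160, plus strand) is a ligand of EphB receptors that also signals into the cell that carries it. Its level was 233.8, 244.6 and 253.8 CPM with siNC and 143.2, 99.7 and 101.0 CPM with siE7. All siE7 libraries were well below siNC, with replicate 1 the highest of them. The log2 fold change was -1.09 (SE 0.146, 95% interval -1.41 to -0.77, adjusted p = 0.000249), a level 2.13-fold lower, and without siE7 replicate 1 it was -1.34. EFNB1 was called lower in all 17 settings but was no DEG with scaling by library totals (-0.93) or without siE7 replicate 2, where it fell just short of the limit.

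EFNB2 (ENSG00000125266.8, chromosome 13 from 106489745 to 106535662, minus strand), the other B-class ligand and the preferred ligand of EphB4, stood at 132.2, 123.5 and 134.2 CPM with siNC and at 84.3, 98.2 and 90.6 CPM with siE7. The groups did not overlap, and siE7 replicate 1 was here the library farthest from siNC. This gave a log2 fold change of -0.51 (SE 0.110, 95% interval -0.75 to -0.27, adjusted p = 0.00428). EFNB2 was called lower in all 17 settings, between -0.57 and -0.34. It overlaps a long noncoding RNA on the opposite strand, which shares 1822 exon bases but had 15 counts in all libraries together.

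EFNA1 (ENSG00000169242.12, chromosome 1 from 155127876 to 155134899, plus strand) encodes the ligand of EphA2 first found as a gene induced by tumour necrosis factor. It was the only member called higher in the main edgeR fit. It stood at 90.0, 97.6 and 86.0 CPM with siNC and at 143.4, 113.3 and 104.8 CPM with siE7. The groups did not overlap, and siE7 replicate 1 was the highest library. The log2 fold change was 0.40 (SE 0.133, 95% interval 0.11 to 0.69, adjusted p = 0.0373), a level 1.32-fold higher. The call was lost without siNC replicate 1, 2 or 3 (adjusted p = 0.131, 0.0846 and 0.164), without siE7 replicate 2 (adjusted p = 0.0543), with DESeq2 (adjusted p = 0.0779) and with RLE scaling in edgeR (adjusted p = 0.0766). Without siE7 replicate 1 the log2 fold change was 0.20 and the adjusted p 0.0068.

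EFNA5 (ENSG00000184349.14, chromosome 5 from 107376894 to 107670937, minus strand), an A-class ligand best known for guiding axons, stood at 2.63, 2.60 and 2.23 CPM with siNC and at 2.16, 2.25 and 3.11 CPM with siE7. The groups overlapped. The log2 fold change was 0.01, with a 95% interval from -0.52 to 0.54 (adjusted p = 0.977), which leaves room for a change in either direction.

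**Figure D1:**
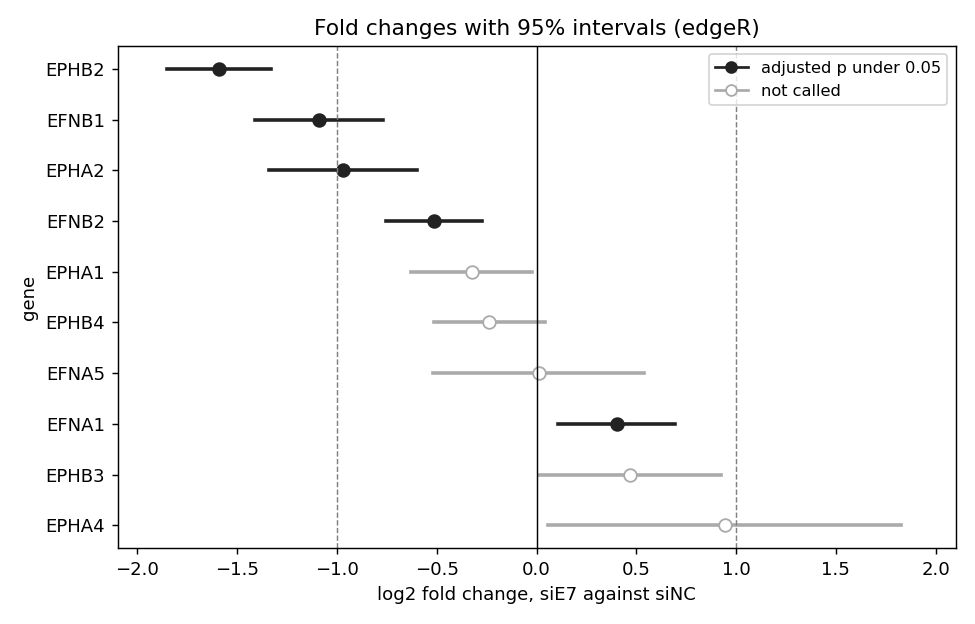
Points give the log2 fold change of each member (siE7 against siNC) from edgeR and bars its 95% interval, filled where the adjusted p was under 0.05. Dashed lines mark the fold limit of a DEG. The values run from -1.59 for EPHB2 to 0.94 for EPHA4, and 4 of the 5 filled points lie below 0. Among all genes tested, 16.0% were called lower and 18.0% higher.

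The other members of the family were mostly close to the limit of detection. Of 12 further ephrin and Eph receptor genes, 8 were in the table and 2 had enough counts to be tested. EFNA3, an A-class ligand, had 29, 37 and 27 counts with siNC and 61, 69 and 65 with siE7. Its log2 fold change was 0.86 (SE 0.270, adjusted p = 0.029), and the call was lost without siNC replicate 1 or 3 (adjusted p = 0.0935 and 0.12), without siE7 replicate 2 or 3 (adjusted p = 0.0993 and 0.0583) and with DESeq2 (adjusted p = 0.0826). EFNA4, its neighbour and also an A-class ligand, had 117, 198 and 213 counts with siNC and 303, 220 and 280 with siE7, a log2 fold change of 0.40 that was not called (adjusted p = 0.181) and that was 0.18 without siNC replicate 1 and 0.25 without siE7 replicate 1. Both share exons with a readthrough gene of the same strand, EFNA4-EFNA3, over 853 bases of EFNA3 and 189 bases of EFNA4, so their counts are uncertain. EPHA3 had 3, 4 and 0 counts with siNC and 6, 10 and 23 with siE7, and EPHB6, a receptor without kinase activity, had 6, 5 and 2 against 15, 14 and 7. EPHA6, EPHA10, EPHB1 and EFNB3 had at most 7 counts in any library. EPHA5, EPHA7, EPHA8 and EFNA2 were absent from the table, which lists no gene without a read, and a count of 0 allows up to 0.0981 to 0.122 CPM, depending on the library (3 counts, counting error only).

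Levels of different genes were compared as CPM per kilobase of all annotated exon sequence of the gene. On this scale EFNB1 was the highest member with siNC, at 73.9 ± 3.03 (SD, n = 3), followed by EFNA1 at 42.1 ± 2.70, EPHB4 at 34.4 ± 0.935, EPHA2 at 26.7 ± 3.17, EFNB2 at 26.0 ± 1.14, EPHB2 at 10.9 ± 0.349 and EPHA1 at 4.67 ± 0.417. EPHB3 (0.920 ± 0.198), EFNA5 (0.434 ± 0.0387) and EPHA4 (0.082 ± 0.0352) came last. EPHA2 and EFNB2 overlapped, and all other neighbours in this order were separate. With siE7 EFNA1 came first, at 55.7 ± 9.37 CPM per kilobase (SD, n = 3), followed by EFNB1 at 34.7 ± 7.49, EPHB4 at 29.2 ± 4.83, EFNB2 at 18.2 ± 1.39, EPHA2 at 13.6 ± 3.41, EPHA1 at 3.73 ± 0.261 and EPHB2 at 3.63 ± 0.419, and the same 3 genes came last. With siE7, EFNB1 and EPHB4, EFNB2 and EPHA2, and EPHA1 and EPHB2 overlapped. The places of EFNA1 and EFNB1 were thus exchanged between the groups, with no overlap between these genes in either group. All annotated exons of EPHB4 covered 6437 bases and its canonical transcript 4353, while EFNB1 had 3303 by both. The order of EFNB1 and EPHB4 with siE7 therefore depends on the length used. Summed over the members, the receptors stood at 77.7 ± 4.04 with siNC and 51.6 ± 8.99 with siE7, and the ligands at 142.4 ± 2.75 and 109.0 ± 15.6 (CPM per kilobase, SD, n = 3).

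Each gene was also expressed as a share of the length-scaled counts of all Eph receptors or of all ephrins in the table, a quantity that scaling between libraries does not affect. These shares are given as descriptions, with no test. EFNB1 made up 49.7 ± 1.09% of the ephrin counts with siNC and 29.4 ± 2.29% with siE7, and EFNA1 28.4 ± 1.78% and 47.3 ± 1.54% (SD, n = 3). The A-class ligands together made up 32.8 ± 1.80% and 54.9 ± 0.840%, and every siE7 library (54.1% to 55.7%) lay above every siNC library (31.2% to 34.8%). EFNB2 made up 17.5 ± 1.07% and 15.8 ± 2.94%, and its groups overlapped. The difference of -1.73 percentage points was -0.0468 without siE7 replicate 1 and -2.76 without siE7 replicate 2. Among the receptors EPHB4 made up 44.2 ± 2.52% with siNC and 56.4 ± 0.537% with siE7, EPHA2 34.3 ± 2.41% and 26.1 ± 2.04%, and EPHB2 14.1 ± 0.307% and 7.06 ± 0.545%. The share of EPHB4 was greater in each siE7 library, siE7 replicate 1 included, although its level in CPM was not called. A share also depends on the other receptors. EPHB4 itself was not higher with siE7 (29.2 CPM per kilobase, 34.4 with siNC), and the summed member receptors stood at 51.6 and 77.7. With the canonical transcript as length, EFNA1 made up 35.5% and 55.5% of the ephrin counts and EFNB1 44.7% and 24.7%. By this length EPHB4 made up 51.3% of the receptor counts with siNC and 62.9% with siE7.

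Known ligand and receptor pairs were set against each other within each library, as the ratio of their counts. The counts are not scaled for gene length, so a ratio is read between groups and not against 1. For EFNA1 to EPHA2 the ratio was 0.805, 1.01 and 0.699 with siNC and 1.98, 2.22 and 2.28 with siE7. The ratio was higher in each siE7 library than in each siNC library, and its log2 differed by 1.38 (2.61-fold). For EFNB1 to EPHB2 the ratio was 1.73, 1.83 and 1.79 with siNC and 2.79, 2.43 and 2.29 with siE7, a log2 difference of 0.49, also without overlap. Both transcripts of this pair were lower with siE7, EPHB2 by more. For EFNB2 to EPHB4 the ratio was 0.617, 0.549 and 0.598 with siNC and 0.377, 0.575 and 0.537 with siE7, and the groups overlapped. The log2 difference of this pair was -0.27, and -0.08 without siE7 replicate 1. The exact two-sided permutation test over libraries gave p = 0.1, 0.1 and 0.2 for the 3 pairs (0.15, 0.15 and 0.2 adjusted over the 3), and 0.1 is the smallest value that 3 libraries against 3 allow.

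Per kilobase of all annotated exons, EPHB4 was the receptor and EFNB1 the ligand with the highest counts over all 6 libraries together. With canonical lengths, EFNB1 led the ephrin shares with siNC (44.7%, EFNA1 35.5%) and EFNA1 led them with siE7 (55.5%, EFNB1 24.7%). The choice of ligand therefore depends on the length used. For EPHB4 and EFNB1, genes outside the family with the most similar profile over the 6 libraries were sought. Likeness was the root mean square difference of centred log2 CPM. Nearest to EPHB4 were TKT (0.0175), UQCRC1 (0.0178) and GGA3 (0.0201). TKT, an enzyme of the pentose phosphate pathway, stood at 478.9, 513.4 and 504.8 CPM with siNC and at 517.9, 385.2 and 387.3 CPM with siE7, so that siE7 replicate 1 again lay beside siNC. Nearest to EFNB1 were ABR (0.0289), TSPAN17 (0.0309) and PFN1 (0.0381). Their log2 fold changes were -1.10, -1.12 and -1.05, against -1.09 for EFNB1. The genes nearest to EPHB4 and to EFNB1 were picked for their likeness in the same 6 libraries. Similar profiles and fold changes therefore follow from the choice.

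Genes of proteins reported to act with Eph receptors or ephrins were examined in 8 lists of 90 genes in all. Of these, 87 were in the table and 82 were tested. The lists were chosen with earlier results of these data known, so their counts are descriptions and no test was made of a list. With siE7, 27 of them were lower (32.9%) and 9 higher (11.0%), beside 16.0% and 18.0% of all genes, and the median log2 fold change was -0.15, beside 0.077 for all genes. Without siE7 replicate 1, the library that stood apart, 46 were lower (56.1%) and 16 higher (19.5%), beside 29.5% and 28.9% of all genes in the same fit, so the calls over all genes rose too. Without siNC replicate 1, 2 or 3 the count of higher partners was 3 each time (3.66%, beside 10.6% to 10.8% of all genes), and without siE7 replicate 2 it was 5 (6.1%, beside 13.0%).

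Close to the receptor, 3 of 14 adaptors were lower (21.4%) and 3 higher (21.4%), beside 16.0% and 18.0% of all genes. CRKL, an adaptor that links phosphorylated proteins to GTPase activators, stood at 72.1, 69.5 and 76.1 CPM with siNC and at 50.8, 43.4 and 45.0 CPM with siE7 (log2 fold change -0.65, SE 0.115, adjusted p = 0.00141). SH2D3A, another adaptor, was also lower (-0.81), and GRB10, a growth factor receptor adaptor, was higher (0.86). Of 15 exchange factors and activating proteins of small GTPases, 6 were lower and 1 higher. SIPA1L1, which acts on Rap GTPases, stood at 117.3, 106.4 and 121.8 CPM with siNC and at 46.3, 47.1 and 44.1 CPM with siE7 (log2 fold change -1.33, SE 0.111, adjusted p = 9.78e-06), and DOCK4, an exchange factor of Rac, was lower as well (-1.40). VAV3, an exchange factor recruited to activated Eph receptors, was the only DEG on the higher side among all 82, beside 7.38% of all genes. VAV3 stood at 10.8, 12.7 and 9.96 CPM with siNC and at 17.4, 33.6 and 35.2 CPM with siE7 (log2 fold change 1.37, SE 0.238, adjusted p = 0.0013).

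Of 12 GTPases and cytoskeletal effectors 4 were lower (33.3%, beside 16.0% of all genes). Among these were the actin-severing protein CFL1 (-0.60), the kinase ROCK2 (-0.72) and HRAS (-0.54). By edgeR, DESeq2 and limma-voom 0 of the 12 were higher, beside 18.0%, 13.1% and 16.2% of all genes. RAP1A alone was higher at an unadjusted p under 0.05 in edgeR. Of 10 cytoplasmic kinases 3 were lower and 1 higher. The Src family members LYN (-0.51) and YES1 (-0.77) and the kinase RPS6KA1 (-0.67) fell. Of 7 phosphatases 3 were lower (42.9%) and 2 higher (28.6%), beside the same 16.0% and 18.0%. PTPRF, a receptor phosphatase known to act on EphA2, stood at 424.1, 421.7 and 445.0 CPM with siNC and at 250.4, 195.1 and 176.0 CPM with siE7 (log2 fold change -1.06, SE 0.135, adjusted p = 0.00019). PTPN1 was lower (-0.67) and PTPRJ higher (0.84).

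On the side of reverse signalling, 2 of 9 genes were lower (22.2%) and 1 higher (11.1%), beside 16.0% and 18.0% of all genes. The polarity proteins PARD6A (-1.20) and PARD6B (-1.13) fell from low levels, and DVL2, a scaffold of Wnt signalling, rose (0.54). Of 6 membrane proteases 2 were lower (33.3%) and 1 higher (16.7%), beside the same 16.0% and 18.0%. ADAM19 stood at 54.0, 53.3 and 55.7 CPM with siNC and at 21.6, 13.2 and 12.2 CPM with siE7 (log2 fold change -1.79, SE 0.195, adjusted p = 6.35e-05). MMP14, a membrane-bound metalloproteinase, was lower (-0.92), and ADAM17, a general sheddase, was higher (0.44). Of 9 membrane partners 4 were lower (44.4%). By edgeR, DESeq2 and limma-voom 0 of the 9 were higher, beside 18.0%, 13.1% and 16.2% of all genes, and 0 at an unadjusted p under 0.05. The receptor EGFR (-1.27), the adhesion protein E-cadherin (CDH1, -1.03) and the adhesion molecule L1CAM (-1.15) were all DEGs. In all, 4 of the 9 were DEGs on the lower side, beside 4.84% of all genes.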

How the data were processed

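RNA of 6 SCC-9 samples was sequenced as directional polyadenylated RNA libraries (Illumina NovaSeq, paired reads of 150 bases), 3 per group. The authors deposited the counts of reads per gene without normalization, in a table that lists no gene without a read. The submitters' processing notes name HISAT2, DESeq2 and GRCh38. The counting tool, its use of strand and the annotation release are not given in the sources used here. The samples were grouped by their titles.

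Genes passing filterByExpr of edgeR 4.0.16 (R 4.3.3) were tested by its quasi-likelihood F-test with TMM scaling, without a block, and p-values were adjusted over all 14661 genes by the Benjamini-Hochberg method. Intervals of fold changes are 95% intervals from this fit. CPM values use the TMM-scaled totals. Ratios and shares were computed after adding 0.5 to each count. The alternatives were DESeq2 1.42.0, voom of limma 3.58.1, scaling by RLE, by upper quartiles and by library totals alone, a fit of all genes, a filter at 10 counts in every library, a replicate block, removal of the GC trend (lowess, span 0.3), and each library left out. The tests were checked on simulated counts with known changes in a small part of the genes and no library set apart from its group. This check therefore covers neither such a library nor as many changed genes as were called here. The length of the canonical transcript was tried after seeing the data.

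Positions, exon lengths and overlaps come from GENCODE release 44, in which 25283 of 25349 identifiers were found without their version and all 10 members with it. Promoters come from RefSeq on GRCh38.p14. The members and the lists were chosen with earlier results of these data known. Named genes are the 10 members, the other family genes, MKI67, and up to 3 called partners with the smallest p in each list. Also named are the 3 genes most alike to the receptor and the ligand with the highest level per kilobase of all annotated exons. Tables and figures were made with Python 3.11.15, pandas 2.3.3, numpy 2.4.6, scipy 1.17.1 and matplotlib 3.10.9.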

Additional observations from a re-analysis of the deposited data

How the results depend on the processing

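EPHB2, EFNB1, EPHA2 and EFNB2 were called lower in all 17 settings. Without 1 library, 4 to 6 members were called lower, beside 10.3% to 29.5% of all genes, and 0 to 1 higher, beside 10.6% to 28.9%. The value of 6 came without siE7 replicate 1, the fit with 29.5%. With DESeq2 and with RLE scaling 0 members were called higher, beside 13.1% and 15.8% of all genes. The number called higher was 2 (EFNA1 and EPHB3) with no composition scaling (27.5% of all genes). It was also 2, the same genes, with the GC trend removed (25.7%) and with that and the replicate block (25.5%). DEGs among the members on the lower side numbered 3 (EPHA2 added) with DESeq2 and with RLE scaling, 1 with no composition scaling and 1 to 3 without 1 library. Over all genes they numbered 798 of 16993 with DESeq2, 795 of 14661 with RLE scaling and 478 of 14661 with no composition scaling. Without 1 library, 665 to 930 of all genes were DEGs on this side. The median of the members was -0.116 with no composition scaling and -0.443 to -0.23 without 1 library. Among the other family genes, 0 were higher with DESeq2 (13.1% of all genes) and 2 (EFNA3 and EPHA3) with no filter (11.6%). The number was 2 (EFNA3 and EFNA4) with the GC trend removed and the replicate block (25.5%). It was 0 to 2 without 1 library (10.6% to 28.9%). Of the partners, 15 were higher with no composition scaling (18.3%, beside 27.5% of all genes), and without 1 library 3 to 16 were higher (3.66% to 19.5%, beside 10.6% to 28.9%) and 19 to 46 lower (23.2% to 56.1%, beside 10.3% to 29.5%). The log2 fold change of EFNA5, never called, turned to -0.05 with DESeq2, -0.0022 with voom, -0.04 with RLE scaling, -0.0041 with no filter, -0.0029 with the replicate block, -0.07 with the GC trend removed, -0.08 with that and the block, and -0.17 to 0.08 without 1 library. The share of EPHB2 differed by -6.49 percentage points with canonical lengths and by -7.02 with exon unions. The cause of these changes was not tested.

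Libraries with the same replicate number did not deviate together (correlations of -0.0393, -0.0205 and -0.0521), so the numbers were not taken as pairs. With the replicate block alone, 4 members were lower and 1 higher, as without it, beside 16.1% and 17.7% of all genes. No call of a member changed. EPHA4, EPHB3, EFNA5 and the further family genes rest on few counts, and the intervals of EPHA4 and EFNA5 include changes that could not be detected at this depth.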

Other observations

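EFNA4, EFNA3 and EFNA1 lie side by side on chromosome 1, and the genes around them were examined after these values had been seen. Within 50 kb on either side, 15 genes were in the table and 12 were tested. EFNA1, EFNA3 and EFNA4, whose values led to this choice, and the readthrough gene EFNA4-EFNA3, which shares their exons, were 4 of the 12. The other 8 had a log2 fold change above 0, as did 55.6% of all genes tested, and 1 of them was called higher (18.0% of all genes tested were), SLC50A1, a sugar transporter gene beside EFNA1. No test was made of a window chosen in this way. SLC50A1 had 483, 538 and 561 counts with siNC and 1098, 772 and 908 with siE7, a log2 fold change of 0.60 (SE 0.143, adjusted p = 0.00743, edgeR's quasi-likelihood test). The readthrough gene had 61, 70 and 57 counts with siNC and 186, 115 and 137 with siE7, a log2 fold change of 1.01 (SE 0.232, adjusted p = 0.0065). For both, each siE7 library held more counts than each siNC library. The smallest value was that of KRTCAP2, 0.04 (adjusted p = 0.883).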
